A study of Mus musculus with 16 samples.

Results

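Tfap2a, Tfap2c, Gata3, Tead4, Elf5, Ets2 and Gcm1, transcription factor genes of the mouse trophoblast, were examined for 3 histone marks in embryonic stem cells on their way to endoderm or mesoderm. The genes were chosen by name, 7 of the 21887 protein-coding genes in the RefSeq table of mm10, and the choice used no peak value, although earlier results of these data were known when it was made. Every peak that overlapped one of them or the 20 kb around it was taken.

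The data were ChIP-seq peak lists for H3K4me3, H3K27me3 and H3K27ac from the mouse embryonic stem cell line CJ9. Cells were either wild type (WT) or carried the allele labelled arid4b∆, written arid4b-delta here, and both genotypes were directed to endoderm or to mesoderm for 5 days. That gives 4 groups, WT endoderm, arid4b-delta endoderm, WT mesoderm and arid4b-delta mesoderm, with 1 library per mark and 12 lists in all. Arid4b encodes a subunit of a Sin3 histone deacetylase corepressor complex, and the question put by the design is how the chromatin of arid4b-delta cells differs from that of WT cells. The labels state neither the extent of the deletion nor whether the mutant line is a single clone. With 1 library per group there is no replicate error, and no difference below was tested. The extent of a peak is also limited by the depth of its library, which is not known.

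The trophoblast is the outer lineage of the blastocyst, which forms the placenta and which mouse embryonic stem cells rarely enter. Tead4, with the coactivator Yap, switches trophoblast genes on in outer cells, Gata3 and the AP-2 factors Tfap2a and Tfap2c act early in that programme, Elf5 and Ets2 maintain trophoblast stem cells, and Gcm1 drives the formation of syncytiotrophoblast. H3K4me3 marks active and poised promoters, H3K27ac marks active promoters and enhancers, and H3K27me3 is deposited by Polycomb at silent developmental genes. A promoter with H3K4me3 and H3K27me3 together is called bivalent.

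In each pair of lists, arid4b-delta had more peaks than WT. H3K4me3 lists held 21752 to 26852 peaks, H3K27me3 lists 6150 to 16660 and H3K27ac lists 12496 to 35884. Of 4 endoderm markers (Sox17, Foxa2, Gata4, Gata6), 0 had promoter H3K27ac in any of the 4 H3K27ac lists, the 2 endoderm lists included. Of 4 mesoderm markers (T, Mesp1, Kdr, Pdgfra), 2 had it in WT mesoderm and 0 in the other 3 lists. Of the pluripotency genes Pou5f1, Nanog and Sox2, 2 or 3 had it in every list. The lineage names are therefore used below as labels only.

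By peaks over the gene and 1 kb around it, a window added after the data were seen, the 7 genes fell into 3 kinds. Tfap2a, Tfap2c, Gata3 and Tead4 carried H3K4me3 and H3K27me3 in all 4 groups and no H3K27ac in the gene or 1 kb around it. Some H3K27me3 peaks of WT mesoderm were weak, with values given below for Tfap2c and Gata3. Ets2 carried H3K4me3 in all 4 groups, no H3K27me3, and a small H3K27ac peak in 3 of 4 groups. Elf5 and Gcm1 had no peak in any of the 12 lists over the gene or within 20 kb of it, as was so for 13.9% of all genes. Both marks in all 8 lists, over the gene or 1 kb around it, were found for 8.23% of all genes, and both marks with H3K27ac in none of the 4 lists for 4.50%. By peaks within 1 kb of a gene end, both methyl marks were at 1 of the 7 genes, Tead4, in WT endoderm (10.1% of all genes) and in WT mesoderm (7.64%). They were at 2, Tfap2a and Tead4, in arid4b-delta endoderm and in arid4b-delta mesoderm (14.2% of all genes in each). By that rule Tfap2c and Gata3 had H3K27me3 without H3K4me3 in all 4 groups, and Tfap2a had it so in both WT groups.

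The 250 bases before the annotated start are shown for 5 of the genes, 1 start each. CpG-rich sequence is where H3K4me3 and Polycomb marks are usually found. Sequences are from RefSeq on build GRCm38.p6, which is mm10, read 5′ to 3′ towards the gene, and capitals mark CpG pairs. Entries for 5 of the 7 genes were in the table used; Tfap2c and Tead4 had none.
Tfap2a, chr13:40734921-40735170, minus strand: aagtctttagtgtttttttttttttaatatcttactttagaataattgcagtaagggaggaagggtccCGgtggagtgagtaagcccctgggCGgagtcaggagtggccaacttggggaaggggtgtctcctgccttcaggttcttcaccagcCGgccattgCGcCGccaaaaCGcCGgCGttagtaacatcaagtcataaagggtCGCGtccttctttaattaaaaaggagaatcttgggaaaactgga
Gata3, chr2:9878601-9878850, minus strand: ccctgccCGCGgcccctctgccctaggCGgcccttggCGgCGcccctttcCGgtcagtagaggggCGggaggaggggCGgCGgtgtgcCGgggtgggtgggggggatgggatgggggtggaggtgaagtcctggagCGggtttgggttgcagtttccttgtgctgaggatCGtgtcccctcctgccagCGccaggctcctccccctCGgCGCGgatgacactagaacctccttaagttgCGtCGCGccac
Ets2, chr16:95702157-95702406, plus strand: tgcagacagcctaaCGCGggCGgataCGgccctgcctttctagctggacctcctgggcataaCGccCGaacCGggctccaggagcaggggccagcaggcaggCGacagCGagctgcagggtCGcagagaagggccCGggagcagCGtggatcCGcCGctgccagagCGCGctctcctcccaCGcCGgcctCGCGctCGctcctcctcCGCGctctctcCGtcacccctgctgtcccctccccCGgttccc
Elf5, chr2:103411848-103412097, plus strand: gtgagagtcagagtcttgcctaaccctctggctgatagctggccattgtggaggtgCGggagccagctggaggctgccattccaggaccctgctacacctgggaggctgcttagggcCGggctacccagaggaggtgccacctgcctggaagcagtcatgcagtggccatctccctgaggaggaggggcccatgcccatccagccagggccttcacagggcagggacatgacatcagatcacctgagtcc
Gcm1, chr9:78051708-78051957, plus strand: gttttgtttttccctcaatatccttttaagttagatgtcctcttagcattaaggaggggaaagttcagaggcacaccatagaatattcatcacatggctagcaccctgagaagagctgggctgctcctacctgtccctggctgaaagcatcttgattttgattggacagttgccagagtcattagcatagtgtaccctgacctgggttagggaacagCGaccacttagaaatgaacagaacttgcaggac
The Ets2 sequence held 25 CpG pairs and the Gata3 sequence 19. Tfap2a held 10 before each of its annotated starts. The Gcm1 sequence held 1 CpG pair, and Elf5 held 2 before the start shown and 8 before a second start at position 103424068. Divided by the number that base composition alone would give, the observed to expected CpG ratio was 0.796 for Ets2, 0.729 and 0.563 for Tfap2a (the start shown and the one at position 40733795), 0.633 for Gata3, 0.0814 and 0.402 for Elf5, and 0.0770 for Gcm1. The median over all 21263 annotated starts was 0.530. It was 0.768 over the 11536 starts with H3K4me3 within 1 kb in all 4 lists, 0.744 over the 1072 starts with both methyl marks in all 8 lists, and 0.173 over the 7680 starts with no peak in any of the 12 lists. Ets2 was thus above the median of the H3K4me3 starts, and Gata3 and Tfap2a lay below it and above that of all starts. Gcm1 and the first Elf5 start lay below the median of starts without a peak. The second Elf5 start lay above that median and below that of all starts. Whether CpG content goes with the kinds of gene was not tested.

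**Figure D1:**
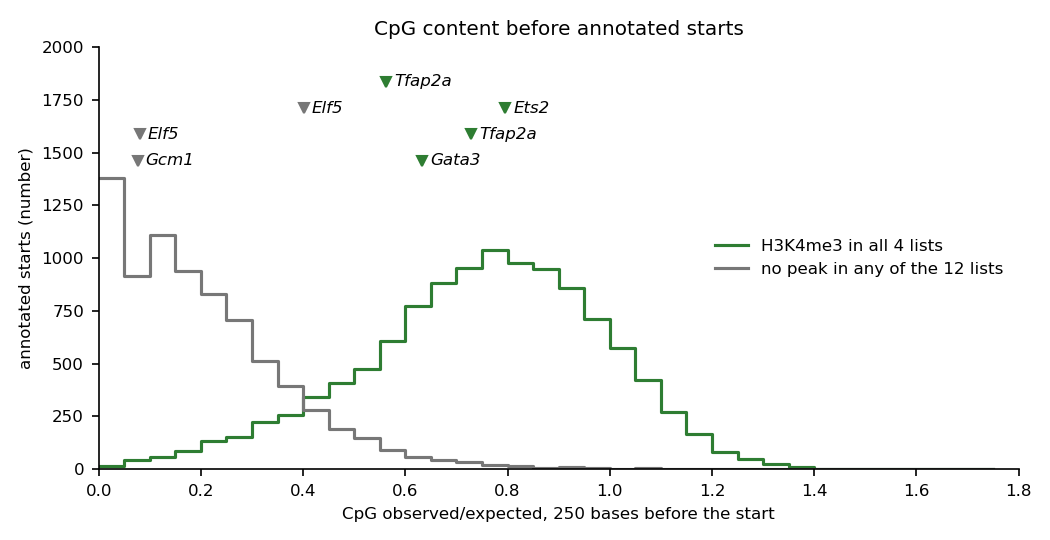
Observed to expected CpG ratio in the 250 bases before annotated starts (x axis) against the number of starts (y axis), for starts with H3K4me3 in all 4 lists (green line) and starts with no peak in any of the 12 lists (grey line). Triangles place the 5 genes with an entry, at a height that carries no meaning and in green where H3K4me3 lay within 1 kb in at least 3 lists: Ets2 stood at 0.796 and Gcm1 at 0.0770.

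Motifs of the factors themselves were searched in the same 250 bases on both strands. The AP-2 motif GCCNNNGGC, which reads the same on both strands, occurred before 16.3% of all annotated starts. Among these genes it matched before Gata3 alone, at 3 places that do not overlap, beginning at positions -246, -231 and -221 relative to the start. The GATA motif AGATAA occurred before 8.81% of starts and before none of these. The TEAD motif GGAATG occurred before 11.7% of starts and matched once, before the first Elf5 start, at position -173. A match is only a run of letters and no binding was measured.

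Bases under a peak, counted over each gene and the 20 kb either side, showed how far the marks spread. H3K4me3 covered more bases in arid4b-delta than in WT at all 5 genes that had it, in both lineages, but so it did at 99.0% of all genes with H3K4me3 there in endoderm and at 97.5% in mesoderm. H3K27me3 covered more in arid4b-delta at 4 of 4 genes in both lineages, against 77.9% of all genes with H3K27me3 there in endoderm and 88.0% in mesoderm. The direction was therefore that of most genes. The median arid4b-delta to WT ratio of covered bases for H3K4me3 was 2.72 over the 5 genes in endoderm, against 1.56 over all genes covered in both lists, and 1.43 against 1.36 in mesoderm. For H3K27me3 it was 1.30 against 1.46 in endoderm and 2.22 against 2.33 in mesoderm. These directions were the same when the longer list of each pair was shortened, by fold enrichment, to the length of the shorter one. With only the upper 50% of each list, H3K4me3 covered more in arid4b-delta at 3 genes and more in WT at 1 in endoderm, and at 4 and 1 in mesoderm.

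**Figure D2:**
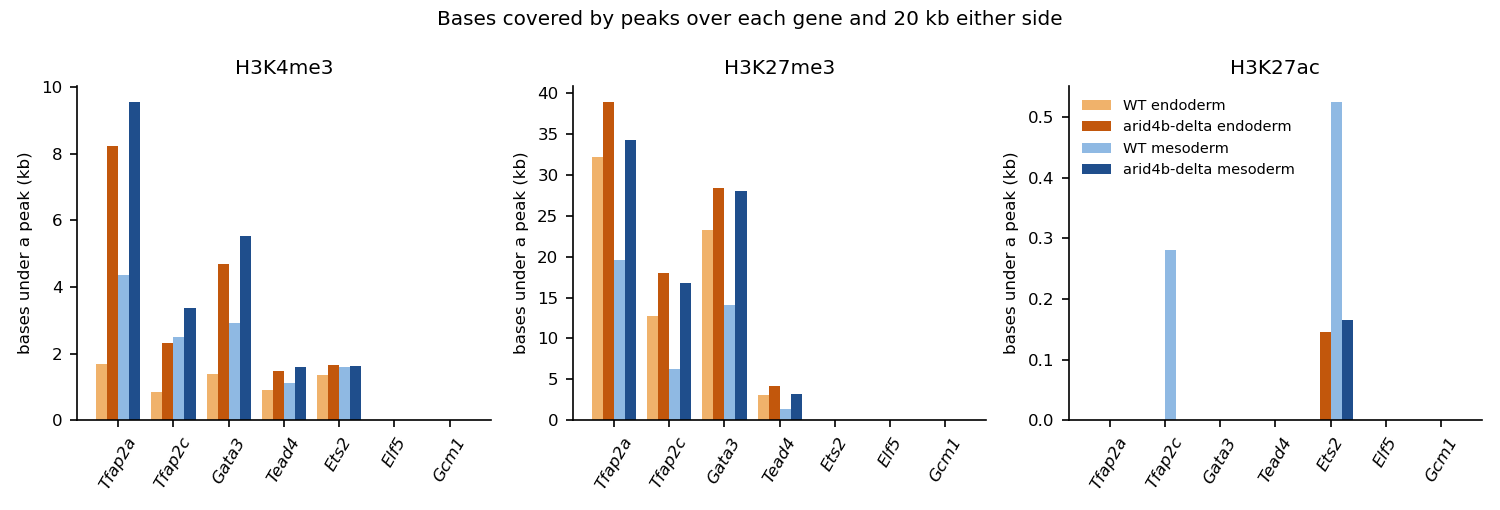
Bases under a peak (kb, y axis) over each of the 7 genes and 20 kb either side (x axis) in the 4 groups, with 1 panel per mark, its own y scale, and 1 library per bar. H3K4me3 over Tfap2a ran from 1.70 kb in WT endoderm to 9.55 kb in arid4b-delta mesoderm, and Elf5 and Gcm1 had 0 in every panel.

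Between lineages, H3K4me3 covered more bases in mesoderm than in endoderm at 5 of the 5 genes in WT (89.0% of all genes with the mark there) and at 4 of 5 in arid4b-delta (80.6%), Ets2 being the exception with 1.65 kb in endoderm and 1.62 kb in mesoderm. H3K27me3 covered more in mesoderm at 0 of 4 genes in WT (15.5% of all genes) and at 0 of 4 in arid4b-delta (31.7%). Here too the genes went the way of most genes.

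Tead4, the factor that acts with Yap at the head of the programme, lies on chromosome 6 (mm10, positions 128227143 to 128300813). Its marks sat at a single place, its high-coordinate end. H3K4me3 there was 1 peak per list, covering 0.921 kb in WT endoderm, 1.47 kb in arid4b-delta endoderm, 1.11 kb in WT mesoderm and 1.59 kb in arid4b-delta mesoderm. The authors' fold enrichment of these peaks, a ratio over background set within each library, was 8.87, 19.3, 13.4 and 19.2 in the same order. H3K27me3 was also 1 peak per list, covering 3.03, 4.18, 1.32 and 3.24 kb in that order, with fold enrichments of 3.02, 3.02, 2.23 and 3.67. Both arid4b-delta values were above the WT value of the same lineage for each mark's extent. H3K27me3 lay over the whole H3K4me3 peak in 3 groups and over 68.2% of its bases in WT mesoderm. The nearest H3K27ac peak was 26.1 to 54.6 kb from the gene.

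Gata3, a zinc finger factor that turns on trophoblast genes beside Cdx2, lies on chromosome 2 (positions 9857078 to 9887953) on the minus strand. Its annotated start, position 9878600, is inside the span the table gives the gene, and H3K4me3 lay at and around this start, with none within 1 kb of a gene end. A peak lay over the start itself in all 4 lists, with fold enrichments of 5.07 in WT endoderm, 8.11 in arid4b-delta endoderm, 3.58 in WT mesoderm and 10.6 in arid4b-delta mesoderm. The peak with the highest fold enrichment in each list lay beside it, 345, 179, 202 and 187 bp upstream of the start, with values of 11.5, 16.3, 7.21 and 15.0 in the same order. Over the gene and its surroundings H3K4me3 came as 4 peaks covering 1.38 kb in WT endoderm, 11 peaks covering 4.68 kb in arid4b-delta endoderm, 7 peaks covering 2.91 kb in WT mesoderm and 11 peaks covering 5.52 kb in arid4b-delta mesoderm. A second cluster lay beyond the high end of the gene, where the lncRNA gene 9230102O04Rik ends at position 9889540. It was 3 peaks in arid4b-delta endoderm, 1 peak of 203 bp in WT mesoderm, 1 peak of 1030 bp in arid4b-delta mesoderm, and absent from the WT endoderm list. The lncRNA genes 4930412O13Rik and 9230102O04Rik overlap Gata3, and a ChIP peak where they do cannot be assigned to one gene or another.

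In the peak lists, H3K27me3 over Gata3 was broken at the start in WT and unbroken there in arid4b-delta. In WT endoderm it came as 5 peaks, the longest of 13282 bp, and in arid4b-delta endoderm as 3, the longest of 26231 bp. In WT mesoderm it came as 5 peaks, the longest of 7746 bp, and in arid4b-delta mesoderm as 1 peak of 27997 bp. The WT mesoderm peaks of 7746 and 4226 bp were weak, with fold enrichments of 1.92 and 1.52 and −log10 q of 0.867 and 0.819. The shorter ones there ran from 1.70 to 3.82 in fold enrichment and from 0.947 to 4.79 in −log10 q. The arid4b-delta mesoderm peak had 2.62 and 3.61. The longest WT endoderm stretches left the start itself free, the nearest ending 2 bp from it, and in WT mesoderm the nearest H3K27me3 was 728 bp away. Both arid4b-delta domains ran across the start. In bases covered the values were 23.2 kb in WT endoderm, 28.4 kb in arid4b-delta endoderm, 14.1 kb in WT mesoderm and 28.0 kb in arid4b-delta mesoderm. The share of H3K4me3 bases that lay under H3K27me3 was 58.8% in WT endoderm and 32.3% in WT mesoderm, and 100% in both arid4b-delta groups.

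Longer single domains in arid4b-delta were common to all 4 of the H3K27me3 genes. Over Tfap2a the longest peak was 17376 bp in WT endoderm and 20675 bp in arid4b-delta endoderm, and 7411 bp and 16760 bp in mesoderm. Over Tfap2c it was 10860 and 13333 bp in endoderm and 3190 and 14820 bp in mesoderm. Of all genes with H3K27me3 in both lists, 78.1% had their longest peak longer in arid4b-delta in endoderm and 91.0% in mesoderm, so the direction was again that of most genes.

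**Figure D3:**
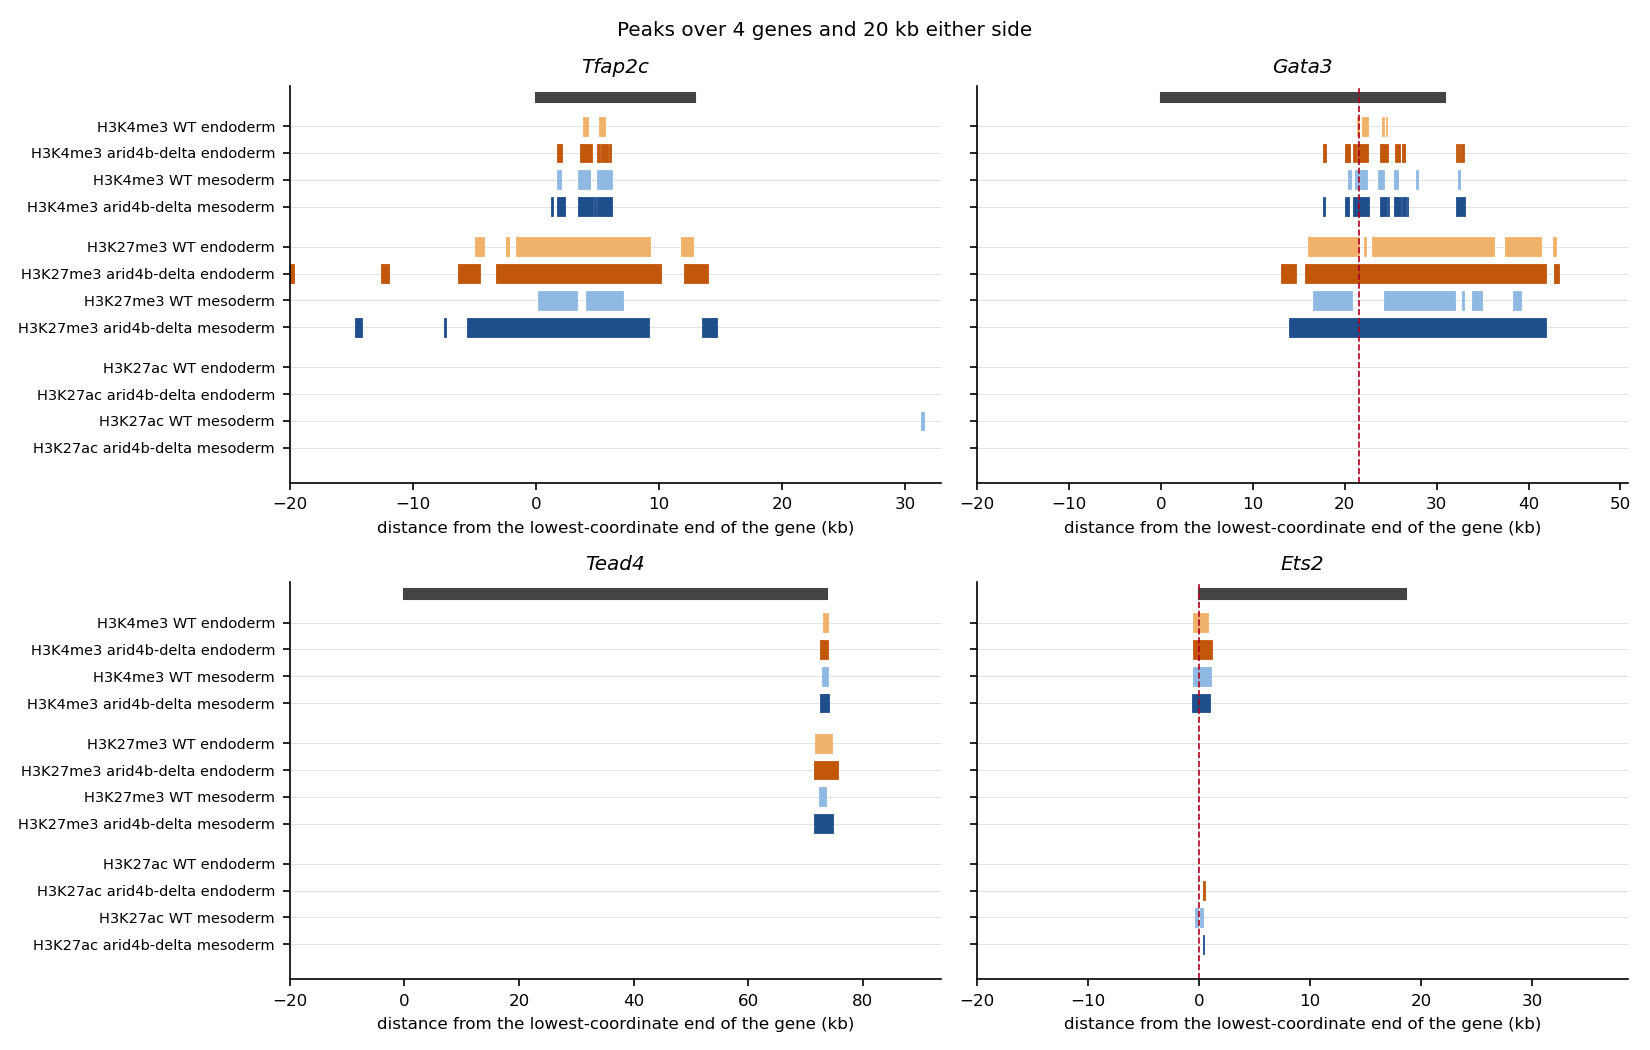
Peaks (boxes, to scale) of each list over Tfap2c, Gata3, Tead4 and Ets2, by distance in kb from the low-coordinate end of the gene (x axis), with the gene as a dark bar and annotated starts as dashed lines where the table holds them. Over Gata3 the 5 H3K27me3 peaks of WT mesoderm face 1 peak of 27997 bp in arid4b-delta mesoderm, and the H3K27ac boxes of Ets2 lie beside its start.

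Tfap2c, which encodes AP-2 gamma, a factor needed for trophoblast upkeep and also active in germ cells, lies on chromosome 2 (positions 172545678 to 172558622). H3K4me3 lay inside the gene, between 1275 and 6166 bp from its low-coordinate end, and no H3K4me3 peak came within 1 kb of either gene end. It covered 0.856 kb in WT endoderm, 2.33 kb in arid4b-delta endoderm, 2.49 kb in WT mesoderm and 3.37 kb in arid4b-delta mesoderm, so that WT mesoderm stood above arid4b-delta endoderm. H3K27me3 covered 12.8, 18.1, 6.22 and 16.8 kb in the same order, lowest in WT mesoderm. H3K27me3 lay over 100% of the H3K4me3 bases in 3 groups and over 74.5% in WT mesoderm. The WT mesoderm list alone held an H3K27ac peak within 20 kb, of 280 bp with a fold enrichment of 7.56, 18.3 kb past the high end of the gene and at the lncRNA gene Gm36038. The nearest H3K27ac peak in the other 3 lists was 105 to 175 kb away.

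Tfap2a, which encodes AP-2 alpha, a factor of the trophoblast and of neural crest and skin, lies on chromosome 13 (positions 40713802 to 40738238) on the minus strand, with annotated starts at positions 40733795 and 40734920. It had the widest cover of both methyl marks among the 7 genes in every group. H3K4me3 came as 5 peaks covering 1.70 kb in WT endoderm, 19 peaks covering 8.22 kb in arid4b-delta endoderm, 12 peaks covering 4.35 kb in WT mesoderm and 20 peaks covering 9.55 kb in arid4b-delta mesoderm. The arid4b-delta to WT ratio of covered bases was 4.85 in endoderm and 2.20 in mesoderm. The authors' highest fold enrichment among these peaks was 8.37, 16.1, 10.8 and 20.4 in the order of the groups above.

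At the annotated starts of Tfap2a the lineages differed in WT. In WT endoderm the nearest H3K4me3 peak was 2158 bp away, at positions 40731181 to 40731637. In arid4b-delta endoderm a peak at positions 40733318 to 40733871 covered the start at 40733795, and another, at positions 40734041 to 40734830, ended 90 bp from the start at 40734920. In WT mesoderm both starts were covered, by peaks at positions 40733568 to 40733827 and 40734640 to 40734942, with fold enrichments of 4.57 and 4.78. In arid4b-delta mesoderm a peak at positions 40733414 to 40733851 covered the start at 40733795, and another began 2 bp from the start at 40734920. So H3K4me3 within 1 kb of a start was in arid4b-delta alone in endoderm, as for 4.59% of all genes with an annotated start, and in both genotypes in mesoderm, where 3.11% of those genes had it in arid4b-delta alone.

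The high-coordinate end of Tfap2a, upstream of both starts, had H3K4me3 in arid4b-delta alone in both lineages. The peaks lay at positions 40737768 to 40738024 and 40738090 to 40738769 in endoderm, the higher fold enrichment of the pair being 7.79, and at positions 40737751 to 40737997 and 40738114 to 40738678 in mesoderm, where the higher was 8.44. The nearest WT peak was 6131 bp away in endoderm and 2809 bp in mesoderm. By gene ends, this made Tfap2a the 1 gene of 7 with promoter H3K4me3 in arid4b-delta only, in endoderm (5.37% of all genes) and in mesoderm (3.92%), and 2.14% of all genes had this in both lineages. None of the 7 had it in WT only, where 0.101% of all genes had it so in endoderm and 0.119% in mesoderm. Taken over the gene and 1 kb around it, all 4 groups had H3K4me3 at Tfap2a and the call ended. It also ended in both lineages, with a count of 0, when only the upper 50% of each list was used. The lncRNA gene Gm26688 overlaps Tfap2a, and a ChIP peak cannot be assigned to one or the other.

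H3K27me3 over Tfap2a came mainly as 2 blocks, one before the low end and one over the starts and the high end. It covered 32.2 kb in WT endoderm, 38.9 kb in arid4b-delta endoderm, 19.6 kb in WT mesoderm and 34.3 kb in arid4b-delta mesoderm. The share of H3K4me3 bases under H3K27me3 was 63.0% in WT endoderm, 86.9% in arid4b-delta endoderm, 51.8% in WT mesoderm and 87.2% in arid4b-delta mesoderm. No H3K27ac peak was closer than 81.6 kb in any list. For Gata3 the nearest was 160 to 192 kb away.

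**Figure D4:**
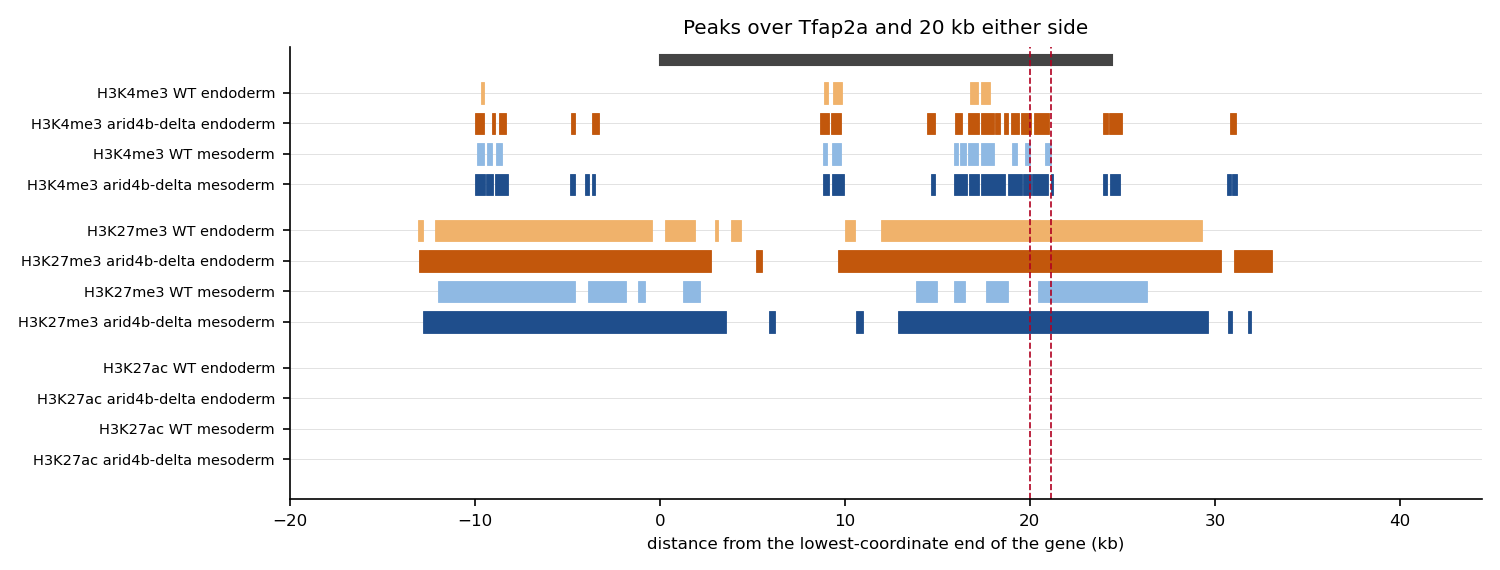
Peaks (boxes, to scale) of the 12 lists over Tfap2a and 20 kb either side, by distance in kb from the low-coordinate end of the gene (x axis), with the gene as a dark bar and the 2 annotated starts as dashed lines. H3K4me3 is 5 boxes in WT endoderm and 19 in arid4b-delta endoderm and lies mostly within the H3K27me3 blocks, and the 4 H3K27ac lines are empty.

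Over all H3K4me3 peaks of a list, the share of bases under H3K27me3 was 11.7% in WT endoderm, 16.2% in arid4b-delta endoderm, 8.23% in WT mesoderm and 16.6% in arid4b-delta mesoderm. Each of Tfap2a, Tfap2c, Gata3 and Tead4 was above this in every group, and Ets2 was at 0 in every group. Those 4 genes were grouped above by carrying both methyl marks, and Ets2 was set apart by lacking H3K27me3. Their place above or below the whole list was thus largely set by that grouping and is no separate result. For the 4 genes the share was higher in arid4b-delta than in WT of the same lineage, except for Tfap2c and Tead4 in endoderm, which stood at 100% in both genotypes. The marks come from separate libraries of a mixed culture, so both marks on the same allele and each mark in different cells cannot be told apart.

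**Figure D5:**
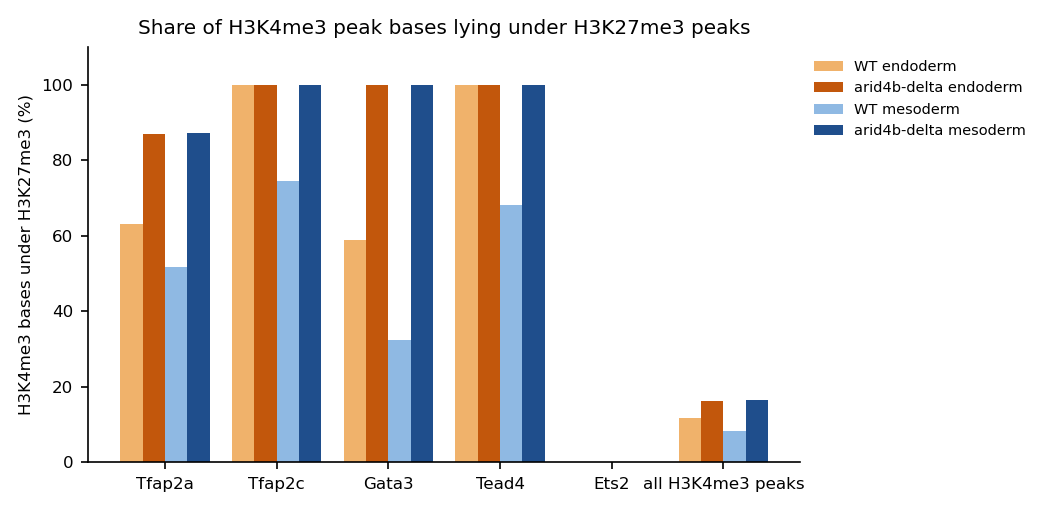
Share of H3K4me3 peak bases that lie under an H3K27me3 peak (%, y axis) for the 5 genes with H3K4me3 and for all H3K4me3 peaks of a list (x axis), in the 4 groups, 1 pair of libraries per bar. Gata3 goes from 32.3% in WT mesoderm to 100% in arid4b-delta mesoderm, and Ets2 is at 0 in each group.

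Ets2, an ETS-family factor that acts downstream of FGF signalling in trophoblast stem cells and is also expressed in many other tissues, lies on chromosome 16 (positions 95702407 to 95721049) on the plus strand. Its H3K4me3 was a single peak over the start in each list. The peak covered 1.35 kb in WT endoderm, 1.65 kb in arid4b-delta endoderm, 1.60 kb in WT mesoderm and 1.62 kb in arid4b-delta mesoderm, with fold enrichments of 16.7, 19.3, 12.3 and 25.8. The arid4b-delta to WT ratio of its extent was 1.22 in endoderm and 1.01 in mesoderm, the smallest among the 5 genes in each lineage. The nearest H3K27me3 peak was 116 to 470 kb away.

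H3K27ac at Ets2 was small and in different places in different groups. WT endoderm had no peak closer than 361 kb. In arid4b-delta endoderm there was 1 peak of 146 bp at positions 95702780 to 95702925 with a fold enrichment of 5.65. WT mesoderm had 2, at positions 95702001 to 95702303 (fold enrichment 5.45) and 95702500 to 95702721 (5.74), covering 0.525 kb. In arid4b-delta mesoderm there was 1 of 166 bp at positions 95702723 to 95702888 (7.47), which did not overlap a WT peak but began 2 bp after the second one. By promoter calls this was H3K27ac in arid4b-delta only in endoderm (4.49% of all genes) and in both genotypes in mesoderm, where 5.62% of all genes had it in arid4b-delta only and 3.71% had it in WT only. Between the WT lists it was present in mesoderm only, as for 6.36% of all genes. The endoderm peak of arid4b-delta was lost when the longer list was shortened to the length of the WT list.

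Elf5, an ETS-family factor that keeps trophoblast stem cells in their lineage and whose promoter is known to carry DNA methylation in embryonic stem cells, lies on chromosome 2 (positions 103412098 to 103450989). Gcm1, which drives branching and cell fusion in the placental labyrinth, lies on chromosome 9 (positions 78051958 to 78065624). Neither had H3K4me3, H3K27me3 or H3K27ac in any group. The nearest H3K4me3 to Elf5 was 33.2 to 33.7 kb away, on the side of the neighbouring gene Cat, and the nearest H3K27me3 111 to 115 kb away. The nearest H3K27ac to Elf5 was 33.8 kb away in WT mesoderm, 29.6 kb in arid4b-delta mesoderm and 310 kb in both endoderm lists. For Gcm1 the nearest H3K4me3 was 42.0 to 42.2 kb away, the nearest H3K27ac 42.6 to 43.1 kb and the nearest H3K27me3 114 to 327 kb. These 2 genes also had the lowest CpG ratios of the 5 genes with sequence, given above.

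Counted by peaks within 1 kb of a gene end, H3K4me3 was at 2 of the 7 genes in WT endoderm (53.3% of all genes), 3 in arid4b-delta endoderm (58.6%), 2 in WT mesoderm (55.9%) and 3 in arid4b-delta mesoderm (59.7%). Gene ends missed Gata3 and Tfap2c in all lists, and by the gene and 1 kb around it the count was 5 of 7 in each list, against 58.9%, 64.1%, 61.2% and 65.3% of all genes. H3K27me3 was at a gene end of the same 4 genes in all 4 lists, against 14.4% of all genes in WT endoderm, 17.2% in arid4b-delta endoderm, 9.34% in WT mesoderm and 16.3% in arid4b-delta mesoderm. None of the 7 genes had promoter H3K27me3 in one genotype only, where 4.89% of all genes had it in arid4b-delta only in endoderm and 7.68% in mesoderm, and 2.05% and 0.726% had it in WT only. H3K27ac was at 0, 1, 1 and 1 of the 7 genes in the order of the lists above, Ets2 each time, against 26.6%, 26.4%, 29.6% and 31.5% of all genes.

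Peak counts were taken over the same regions. Over the 7 genes and their surroundings there were 13 H3K4me3 peaks in WT endoderm and 37 in arid4b-delta endoderm, and 13 of each overlapped a peak of the other genotype. In mesoderm there were 24 in WT and 38 in arid4b-delta, of which 23 and 23 overlapped. Whole H3K4me3 lists also held more peaks in arid4b-delta, 25272 against 22292 in endoderm and 26852 against 21752 in mesoderm. H3K27me3 came as 17 peaks in WT endoderm, 13 in arid4b-delta endoderm, 16 in WT mesoderm and 12 in arid4b-delta mesoderm, fewer and longer in arid4b-delta. Whole H3K27me3 lists went the other way in number. Endoderm held 16660 peaks for arid4b-delta against 10326 for WT, and mesoderm 9863 against 6150. The H3K4me3 overlaps above have no share over a whole list beside them. Whether the 7 genes differ from other genes in these peak counts was not tested.

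The close relatives of these factors carried varied marks, and not all of them fell into the 3 kinds above. In the gene or 1 kb around it, the AP-2 genes Tfap2b, Tfap2d and Tfap2e and the GATA genes Gata2, Gata4, Gata5 and Gata6 had H3K27me3 in 4 of 4 lists and H3K4me3 in 3 or 4. H3K27ac was in none of these lists except at Tfap2d, which had it in 2. Tead1, Tead2 and Tead3, by contrast with Tead4, had H3K4me3 and H3K27ac in 4 of 4 lists, and of them Tead1 alone had H3K27me3, in 3. Ets1 had H3K4me3 in 4 lists, H3K27me3 in 2 and H3K27ac in 3. Gata1, Gcm2 and Ehf, like Gcm1 and Elf5, had none of the 3 marks, and Elf3, the other relative of Elf5, had H3K4me3 in 2 lists and H3K27ac in 3.

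Of 63 other genes of the trophoblast programme, in lists of trophoblast lineage genes, upstream regulators and family relatives, 35 had promoter H3K4me3 in WT endoderm (53.3% of all genes) and 44 in arid4b-delta endoderm (58.6%). Of the 63, 9 were in arid4b-delta only (5.37% of all genes), and the WT-only count was 0 (0.101%). In mesoderm the counts were 39 (55.9%) and 46 (59.7%), with 7 in arid4b-delta only (3.92%) and a WT-only count of 0 (0.119%). The lists differed in this. Of the 34 trophoblast lineage genes, 5 were in arid4b-delta only in endoderm but only 1, Gata2, in mesoderm. Of the 15 family relatives it was 5 in each lineage, and of the 16 upstream regulators 0 in endoderm and 2 in mesoderm. Gata2 is counted both as a lineage gene and as a relative. By gene ends, Gata2, Gata5, Tfap2b and Elf3 were in arid4b-delta only in both lineages. Over the gene and 1 kb around it, Gata2, Gata5 and Tfap2b had H3K4me3 in WT mesoderm too, and the mesoderm count of 7 became 2. Gata2 is a trophoblast giant cell factor, and its peaks there had fold enrichments of 7.16 in endoderm and 8.35 in mesoderm. Those of Tfap2b had 5.32 and 11.1. In endoderm the highest folds were at Pparg (10.3), a nuclear receptor needed for the placenta, and at Ascl2 (8.04), a factor of the spongiotrophoblast, with a WT peak 1176 bp away from the first and 1048 bp away from the second. In mesoderm Nanog, a pluripotency factor, was also among them (6.50).

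H3K27me3 was at the promoter of 29 of the 63 in WT endoderm (14.4% of all genes) and 32 in arid4b-delta endoderm (17.2%). There were 4 in arid4b-delta only (4.89%) and 1, Mmp9, in WT only (2.05%). In mesoderm it was at 21 (9.34%) and 33 (16.3%), with 12 in arid4b-delta only (7.68%) and a WT-only count of 0 (0.726%). Krt7, a trophoblast keratin, and Wwtr1, which encodes the Yap relative Taz, had it in arid4b-delta only in both lineages. In mesoderm the highest fold enrichments were at Notch1 (5.05), Fgfr2 (3.39), the receptor for the FGF4 that maintains trophoblast stem cells, and Wwtr1 (2.90). With the longer list shortened to the shorter, 7 were in arid4b-delta only in mesoderm, against 2 in the opposite direction. In endoderm the balance turned round, to 3 in arid4b-delta only against 9 in WT.

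For H3K27ac the other genes moved both ways. In endoderm 3 of the 63 had it in WT only (4.70% of all genes), namely Nanog, Krt8 and Krt18, the keratin pair of simple epithelia and trophoblast, and 1, Lats2, a kinase that restrains Yap, in arid4b-delta only (4.49%). In mesoderm 2 had it in WT only (3.71%), Amot, a Yap regulator (fold enrichment 9.40), and Cdx2, the trophoblast and hindgut homeobox factor (7.11). There were 4 in arid4b-delta only (5.62%), namely Nanog (8.65), Elf3 (7.35), Fgf4 (5.73) and Krt18 (5.66). Nanog and Krt18 thus stood in WT only in endoderm and in arid4b-delta only in mesoderm, a difference that was not tested. The Nanog peaks of the 2 lineages lay at opposite ends of the gene, so they do not show 1 promoter differing in both directions. With lists matched in length, 8 were in WT only and 1 in arid4b-delta only in endoderm, and the mesoderm balance turned to 3 in WT only and 2 in arid4b-delta only.

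Genes with the most similar promoter windows, by the mean absolute difference in the share of the window covered over the 12 lists, were Fezf2, Dmrt1 and Sp9 for Tfap2a (2.12, 2.26 and 3.23 percentage points), Olig3 and Hes3 for Tfap2c (2.50 and 2.65), Cacna2d2, Stox2 and Cabp7 for Tead4 (0.562, 0.893 and 0.908), and Vrk3, Zfp473 and Tubgcp4 for Ets2 (0.918, 0.943 and 1.05). For Gata3, whose window at the gene ends holds H3K27me3 alone, they were Duox2, Zfp536 and Lpin1 (0.0, 0.012 and 0.725).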

How the data were processed

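Reads from 12 ChIP libraries were mapped and peaks called by the authors with Bowtie2, Picard and MACS2 on build mm10, per the submitters' processing notes, which give no versions or settings here. Each library has its own deposited peak list, narrow for H3K4me3 and H3K27ac and broad for H3K27me3, and the 4 input samples were not analysed here. The authors' fold enrichment per peak is a ratio over background. The deposited −log10 q values were used to describe peaks and to order peaks of equal fold when lists were shortened. Folds are printed side by side and were not tested. A peak list does not give the depth.

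Peaks were joined in Python 3.11.15 (pandas 2.3.3, numpy 2.4.6; figures in matplotlib 3.10.9) to 21887 protein-coding genes of the RefSeq table of GRCm38.p6, and 17492 of them, 5 of the 7 factors included, had an annotated start in a RefSeq promoter table. The promoter window was 1000 bp either side of each gene end, and it counted as marked with at least 1 bp under a peak. An annotated start, and the gene with 1 kb around it, were used as other windows. Peaks of the 2 genotypes with 1 bp or more in common were taken as shared. With 1 library per group no test was made, and members are set beside the share of all genes called in the same way. The counting was tested on simulated peaks. Alternatives were other windows, distances and overlaps, longer peaks, the upper 50% of each list, and lists matched in length.

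The genes and lists were chosen with earlier results of these data known. Named were the 7 factors, the listed genes that differed between genotypes in the same direction in both lineages, up to 3 more per mark, lineage and direction by fold enrichment, and the 3 genes most similar to each factor with promoter coverage in at least 3 lists. Some genes chosen by this rule are counted but not reported here. Relatives of the factors were described from the whole list of 15.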

Additional observations from a re-analysis of the deposited data

Results flagged for a closer look

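The bases under H3K27ac at Ets2 differed between genotypes in opposite directions in the 2 lineages. The arid4b-delta minus WT difference was 0.146 kb in endoderm, where WT had none, and -0.359 kb in mesoderm, where WT had 0.525 kb and arid4b-delta 0.166 kb. Each value is from 1 library, and this difference between lineages was not tested.

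By peaks within 1 kb of either gene end, H3K27ac at Nanog and Krt18 was in WT only in endoderm and in arid4b-delta only in mesoderm. The authors' fold enrichment of the Nanog peak was 9.73 in WT endoderm and 8.65 in arid4b-delta mesoderm, and that of the Krt18 peak 4.16 and 5.66. The Nanog peaks lay at opposite ends of the gene, positions 122715467 to 122716041 in WT endoderm and 122706918 to 122707124 in arid4b-delta mesoderm. The H3K4me3 peak of arid4b-delta mesoderm, at positions 122707600 to 122709345, lay by the second of these. The Nanog calls thus do not show 1 promoter differing in both directions. The nearest peak of the other genotype in the same lineage was 1623 bp and 1875 bp away. The Krt18 peaks overlapped each other. The difference between lineages was not tested for either gene.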

How the results depend on the processing

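No paired analysis was possible because each group has 1 library and no replicate numbers, and for the same reason no library could be left out. The windows of the gene and 1 kb around it, and the bases covered with lists matched in length, were chosen after seeing the data. The values were counts of genes or peaks, named here where they left the reported value by more than 1.5 times, and the cause was not tested.

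With the gene and 1 kb around it, H3K4me3 was at 5 of the 7 factors in each list, both methyl marks at 4 in each group, and arid4b-delta-only H3K4me3 at 0 in both lineages. The other genes then gave 5 WT-only and 2 arid4b-delta-only for endoderm H3K27ac, 0 WT-only for endoderm H3K27me3, 7 arid4b-delta-only for mesoderm H3K27ac and 2 for mesoderm H3K4me3. With annotated starts alone, which 5 factors have, H3K27me3 was at 2 in each list, arid4b-delta-only H3K4me3 in mesoderm at 0, mesoderm-only H3K4me3 in WT at 1, and both marks in WT mesoderm at 2. The other genes then gave 2 arid4b-delta-only for endoderm H3K27me3 and 3 for mesoderm H3K4me3.

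With a window of 2500 bp, H3K4me3 was at 4 factors in WT mesoderm and 5 in both arid4b-delta lists, arid4b-delta-only H3K4me3 in endoderm at 3, mesoderm-only H3K4me3 in WT at 2, and both marks at 3 in WT mesoderm and 4 in both arid4b-delta groups. The other genes gave 2 arid4b-delta-only for endoderm H3K27ac, 7 for endoderm H3K27me3 and 4 for mesoderm H3K4me3. With a window of 500 bp the factors' counts were within 1.5 times of those reported, and the other genes gave 3 WT-only for endoderm H3K27me3 and 1 each for mesoderm H3K27me3 and H3K4me3.

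With at least 500 bp of the window covered, Ets2 H3K27ac was called in 0 factors in both arid4b-delta lists, 0 arid4b-delta-only in endoderm and 1 WT-only in mesoderm. The other genes gave WT-only counts of 1 for endoderm H3K27ac, 2 for endoderm H3K27me3, 5 for mesoderm H3K27ac and 1 for mesoderm H3K4me3, and 2 arid4b-delta-only for mesoderm H3K27ac. With peaks of at least 500 bp, H3K27ac was at 0 factors in all lists, so the arid4b-delta-only count in endoderm and the mesoderm-only count in WT were 0. The other genes gave 0 arid4b-delta-only for endoderm H3K27ac, 0 WT-only for endoderm H3K27me3, 5 WT-only and 1 arid4b-delta-only for mesoderm H3K27ac, and 1 WT-only for mesoderm H3K4me3.

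With lists matched in length, H3K27ac in arid4b-delta endoderm was at 0 factors and covered more in arid4b-delta at 0, so the arid4b-delta-only count was 0. The other genes gave WT-only counts of 8 for endoderm H3K27ac, 9 for endoderm H3K27me3, 2 for mesoderm H3K27me3 and 1 for mesoderm H3K4me3, and arid4b-delta-only counts of 2 for mesoderm H3K27ac and 7 for mesoderm H3K27me3.

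With the upper 50% of each list, H3K27ac was at 0 factors in WT mesoderm and arid4b-delta endoderm, and both methyl marks at 1 in both arid4b-delta groups. Arid4b-delta-only counts were 0 for H3K4me3 in both lineages and for endoderm H3K27ac, and 1 for mesoderm H3K27ac and H3K27me3. Between lineages, WT had 0 mesoderm-only for H3K27ac and 1 endoderm-only for H3K27me3, and arid4b-delta had 1 mesoderm-only for H3K27ac. The other genes gave WT-only counts of 1 for endoderm H3K27ac, 3 for H3K27me3 in both lineages and 2 for H3K4me3 in both. H3K4me3 peaks numbered 4 in both WT lists, 7 in arid4b-delta endoderm and 9 in arid4b-delta mesoderm, with 3 shared in each. WT mesoderm held 10 H3K27me3 peaks, 10 of them shared, and 1 H3K27ac peak, and arid4b-delta endoderm 0. More H3K4me3 bases were covered in arid4b-delta at 3 genes and in WT at 1 in endoderm, and in WT at 1 in mesoderm. For H3K27ac it was 0 in arid4b-delta endoderm, and 1 in each genotype in mesoderm.

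With 50 kb around the gene, H3K27ac peaks numbered 2 in both endoderm lists, 8 in WT mesoderm and 6 in arid4b-delta mesoderm, with 1 shared in each endoderm list and 3 in each mesoderm list. They covered more in WT at 2 genes in endoderm and 4 in mesoderm, and more in arid4b-delta at 1 in mesoderm. With 10 kb, more was covered in WT mesoderm at 1. With 50% of a peak covered, shared H3K27me3 peaks were 5 in arid4b-delta endoderm and 3 in arid4b-delta mesoderm.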
